A study of Ovis aries with 95 samples.

Results

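BCL2 is the founding member of a family of proteins that set whether a cell lives or dies at the mitochondrial outer membrane. It sits in that membrane and holds back the pore-forming members BAX and BAK, while BH3-only members such as BAD and BIM release them by occupying BCL2 and its relatives. Once the pore forms, cytochrome c leaves the mitochondrion and caspases are activated. In the developing brain, where many more neurons are produced than are kept, BCL2 and its relative BCL2L1 are both known as survival factors of neurons.

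BCL2 was 1 of 14347 gene names on the sheep array, and its members are the 2 of 15008 gene probes that the array files name BCL2. The gene was chosen by its measured levels on these same arrays, from earlier results over region and age. Its levels and differences are therefore given as a description, with standard errors but without a test.

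Untreated sheep gave tissue of 4 brain regions, namely hypothalamus, hippocampus, brainstem and cortex. Fetuses were taken at gestational ages labelled 80, 100, 120, 130 and 145 d, and newborns 1 d after birth. In the study's methods the groups labelled 100 and 145 d each spanned a few days, and the latter was taken slightly before its label. The study followed how gene expression in these regions changes over late gestation and at birth. Each of the 24 combinations of region and age had 4 arrays, except the hippocampus at 100 d with 3, for 95 arrays in all. Each array measured 1 RNA sample with Cy3 dye, so a value is a level in that sample and not a ratio.

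No group received a treatment and no transgene is involved. The design compares region and age, with birth between the last pair of ages. In the study's methods each age held a pair of twins, which the labels do not mark, and the same animals gave several regions, so p-values of the tests below take arrays as independent. The tissue was bulk, and a lower level can come from fewer cells of a type or from less RNA per cell, which cannot be told apart.

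Between 59.5 and 88.5% of the gene spots of an array were well above background. Each of the 14 slides and 6 scan days held arrays of 1 region only, so a difference between regions and a difference between slides cannot be told apart. Within a region the slides held several ages. Of 12 brainstem markers, SLC6A4 and GATA3 had a named probe, and the mean of their log2 levels at 80 d was 8.71 in the brainstem and 6.96 to 7.99 elsewhere. Of 12 hypothalamus markers 7 had a named probe, with a mean of log2 levels at 80 d of 9.98 in the hypothalamus and 8.24 to 8.58 elsewhere. Averaged over all ages, SST was lowest in the hypothalamus (13.28, while hippocampus had 14.53), and the other named markers were highest there. The summed intensity of the list did not set the hypothalamus apart at 80 d. Its range of 13020 to 23630 overlapped that of each other region, such as 17020 to 29160 for hippocampus. The lists for neurons, and for cortex and hippocampus, had 0 named members, so these labels could not be set against markers.

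The 2 probes are shown because each later result rests on how far they report the same transcript. Both were designed on the coding part of an ovine bcl-2 mRNA record and start 2 bases apart. The one that starts later in the record is called probe A here, and the other probe B. Capitals mark the 58 bases that they share.

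Probe A: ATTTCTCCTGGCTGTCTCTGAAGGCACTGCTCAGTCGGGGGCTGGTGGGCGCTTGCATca
Probe B: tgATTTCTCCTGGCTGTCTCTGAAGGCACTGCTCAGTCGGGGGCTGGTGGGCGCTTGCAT

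Each probe has 60 bases, of which 36 are G or C. The longest stretch that probe A shared with any probe of another gene was 12 bases, and for probe B it was 14 bases. Both spots were well above background on all 95 arrays and neither was saturated on any. The BCL2 level below is the mean of both probes on the log2 scale of normalized intensity, so a difference of 1 is a doubling.

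In the cortex, BCL2 stood highest at 80 d and was lower at each later age. At 80 d the 4 arrays read 13.13, 12.53, 12.50 and 12.55, a mean of 12.68 ± 0.30 (SD, n = 4). At 100 d they read 11.58, 11.27, 11.36 and 11.95, a mean of 11.54 ± 0.30 (SD, n = 4). All arrays at 100 d lay below all arrays at 80 d.

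At 120 d the cortex arrays read 11.18, 10.55, 10.98 and 10.86, with a mean of 10.89 ± 0.26 (SD, n = 4), and again none reached the lowest array of the age before. At 130 d they read 10.57, 10.44, 10.48 and 10.84, a mean of 10.58 ± 0.18 (SD, n = 4). From here on neighbouring ages overlapped. At 145 d the values were 10.32, 10.23, 10.54 and 10.55, a mean of 10.41 ± 0.16 (SD, n = 4). One day after birth they were 10.05, 9.60, 10.75 and 10.03, a mean of 10.11 ± 0.48 (SD, n = 4), with 1 array above all those of 145 d and 3 below them.

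From 80 d to 145 d the cortex level fell by 2.27 on the log2 scale, with a standard error of 0.21, which is 4.83-fold lower. Of this, 1.14 lay between 80 and 100 d (log2 difference -1.14 ± 0.21 SE). A further step of -0.65 ± 0.21 (SE) lay between 100 and 120 d, while the steps to 130 d (-0.31) and to 145 d (-0.17) had overlapping arrays. The step from 145 d to 1 d after birth was -0.30 ± 0.21 (SE), with overlapping arrays. It was -0.13 without newborn replicate 2 and -0.51 without newborn replicate 3. Among the 12712 genes measured in the cortex, 22 fell more than BCL2 between 80 and 145 d, and the median gene changed by -0.02. In 19.3% of these genes every array of 145 d lay below every array of 80 d, as it did for BCL2. How often all genes separated between neighbouring ages was not counted. A lack of overlap at such a step is therefore not read as particular to BCL2.

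**Figure D1:**
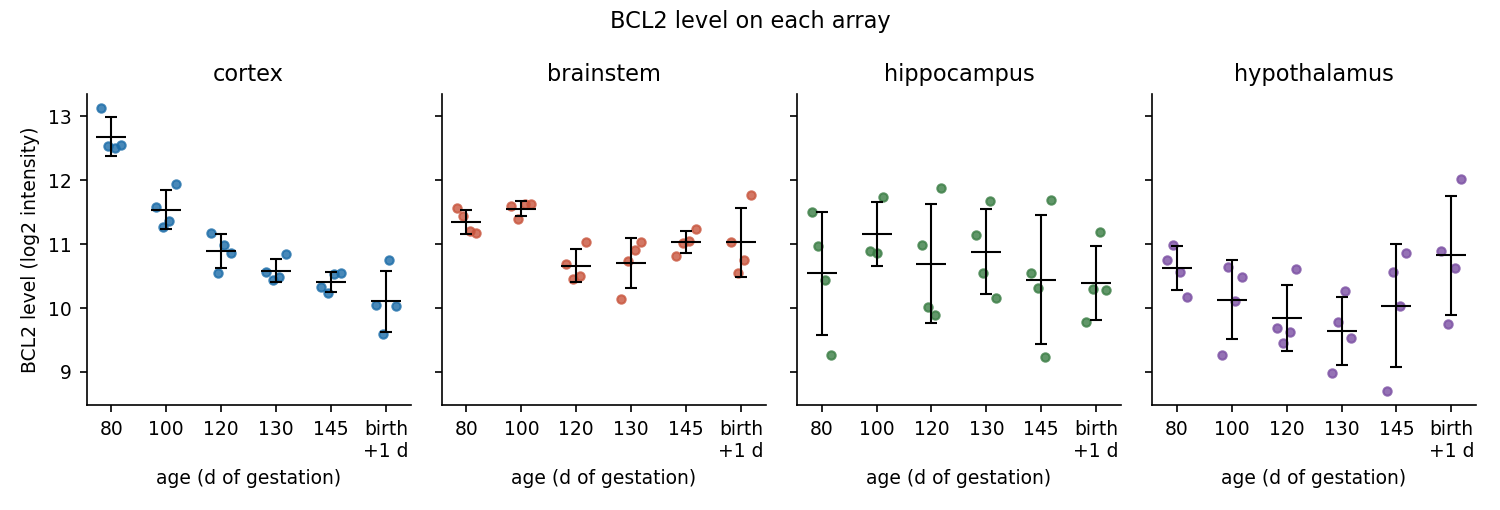
BCL2 level (log2 intensity, vertical axis) on each array against age in 4 panels, 1 per region, with each point an array and the bar and whiskers the mean and SD of the 3 or 4 arrays of an age. The cortex arrays run from 13.13 at 80 d to 9.60 after birth, while in the hippocampus and hypothalamus the arrays of 1 age spread widely, from 9.23 to 11.69 in the hippocampus at 145 d.

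The fall in cortex was present on each slide that held both ages. The difference of 145 d from 80 d was -2.51 on slide 8, -2.27 on slide 9 and -2.01 on slide 13. Probe A alone gave -2.21 and probe B alone -2.34, and in 24 of 24 cortex arrays the probes lay within 0.5 of each other.

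In the brainstem, BCL2 went down between 100 and 120 d and was higher again at 145 d, within a range much narrower than in cortex. At 80 d the arrays read 11.56, 11.45, 11.21 and 11.18, a mean of 11.35 ± 0.18 (SD, n = 4). At 100 d they read 11.59, 11.39, 11.63 and 11.62, a mean of 11.56 ± 0.11 (SD, n = 4). These ages overlapped.

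At 120 d the brainstem arrays read 10.68, 10.45, 10.49 and 11.03, a mean of 10.66 ± 0.26 (SD, n = 4), all below the lowest array of 100 d. This step was -0.89 ± 0.22 (SE) on the log2 scale, or 1.86-fold lower. How many brainstem genes separated at this step was not counted, so the separation is not read as particular to BCL2. At 130 d the values were 10.14, 10.74, 10.91 and 11.04, a mean of 10.71 ± 0.40 (SD, n = 4). At 145 d they were 10.82, 11.02, 11.04 and 11.23, a mean of 11.03 ± 0.17 (SD, n = 4). The arrays of 120, 130 and 145 d overlapped each other.

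After birth the brainstem arrays read 11.03, 10.55, 10.75 and 11.77, a mean of 11.03 ± 0.54 (SD, n = 4). The array at 11.77 had gene spots around its BCL2 probes that were 0.44 and 0.62 above their mean over the brainstem arrays, and with this local offset taken off its level was 11.24 and the SD of the group 0.30. Between 80 and 145 d the brainstem level changed by -0.32 ± 0.22 (SE), with overlapping arrays. Within slides that difference was -0.58 on slide 10, -0.17 on slide 11 and 0.06 on slide 12. Every array of 145 d below every array of 80 d was seen for 25.8% of brainstem genes and not for BCL2.

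In the hippocampus the arrays of an age differed more from each other than the ages did. At 80 d they read 11.50, 10.97, 10.43 and 9.26, a mean of 10.54 ± 0.96 (SD, n = 4). At 100 d they read 10.89, 10.86 and 11.73, a mean of 11.16 ± 0.49 (SD, n = 3). At 120 d they read 10.98, 10.01, 9.89 and 11.88, a mean of 10.69 ± 0.93 (SD, n = 4). The array at 11.88 was also the one of all 95 that was least like its own group, with a median correlation of 0.83 over probes. At 5 of the 6 hippocampus ages, all but 80 d, the array with the lowest share of spots well above background (59.5 to 72.3%) had the highest BCL2 level. The same was seen at 4 of 6 ages in cortex, 1 in brainstem and 1 in hypothalamus, and its part in the levels was not tested.

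At 130 d the hippocampus arrays read 11.14, 10.55, 11.67 and 10.16, a mean of 10.88 ± 0.67 (SD, n = 4). At 145 d they read 10.54, 10.32, 9.23 and 11.69, a mean of 10.44 ± 1.01 (SD, n = 4). After birth they read 9.79, 10.30, 11.19 and 10.29, a mean of 10.39 ± 0.58 (SD, n = 4). No pair of successive ages was free of overlap.

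The hippocampus difference of 145 d from 80 d was -0.10 ± 0.58 (SE), which does not settle a direction: with 1 array left out it ran from -0.52 to 0.31, and it was 0.46 by probe A alone and -0.66 by probe B alone. Within slides it was -0.81 on slide 4 and -0.03 on slide 7, the 2 slides with both ages. Every array of 145 d below every array of 80 d was seen for 8.75% of hippocampus genes and not for BCL2. On 1 array at 100 d and 1 at 120 d the spot of probe A carried an outlier mark and was dropped, so those 2 levels rest on probe B alone.

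In the hypothalamus the means of both probes together went down from 80 to 130 d and up again towards birth, with overlap at each step. Only probe B showed this course, with means of 11.19 at 80 d, 9.42 at 130 d and 10.79 after birth. Probe A gave 10.05, 9.87 and 10.86 at these ages, and its lowest mean was 9.61 at 145 d. At 80 d the arrays read 10.76, 10.99, 10.56 and 10.17, a mean of 10.62 ± 0.35 (SD, n = 4). At 100 d they read 9.27, 10.65, 10.11 and 10.49, a mean of 10.13 ± 0.62 (SD, n = 4). At 120 d they read 9.68, 9.46, 9.63 and 10.61, a mean of 9.84 ± 0.52 (SD, n = 4). The highest array at 120 d and the lowest at 80 d overlapped.

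At 130 d the hypothalamus arrays read 8.99, 9.79, 10.27 and 9.53, a mean of 9.64 ± 0.53 (SD, n = 4), the lowest of all 24 groups for the mean of both probes but not by probe A alone, for which the hypothalamus at 145 d was lowest. At 145 d they read 8.70, 10.57, 10.03 and 10.86, a mean of 10.04 ± 0.96 (SD, n = 4). After birth they read 10.89, 9.76, 10.62 and 12.02, a mean of 10.82 ± 0.93 (SD, n = 4). The array at 12.02 stood more than 1 above any other hypothalamus array.

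From 80 to 145 d the hypothalamus level changed by -0.58 ± 0.49 (SE), and from 145 d to 1 d after birth by 0.78 ± 0.49 (SE). Without replicate 1 at 145 d these differences were -0.13 and 0.34, and without newborn replicate 4 the second was 0.38. By probe A alone the second was 1.24 and by probe B alone 0.33. Within slides the first difference was -2.17 on slide 1, 0.39 on slide 2 and -0.12 on slide 3, so the slides differed in direction. With the processed signal, the scanner software's own corrected intensity, the first difference was -1.19, and -0.57 in hippocampus. Every array of 145 d below every array of 80 d was seen for 10% of hypothalamus genes and not for BCL2.

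In the order of the 24 group means, cortex at 80 d was first and was the only group whose arrays did not overlap those of the next group, brainstem at 100 d at 11.56. The gap between them was 1.13 on the log2 scale. The other 22 of 23 neighbouring pairs overlapped, so below the first place the order of neighbours is not resolved by the spread between arrays. Some groups farther apart in the order did not overlap, such as brainstem at 100 d (lowest 11.39) and cortex at 120 d (highest 11.18). At 80 d the cortex exceeded the brainstem by 1.33, the hippocampus by 2.14 and the hypothalamus by 2.06 (SE 0.40 each), and its arrays overlapped none of them.

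By 145 d the cortex had gone from the highest to among the lower means. It lay below the brainstem by 0.62 (pooled SE 0.40) with no overlap, and overlapped the hippocampus and the hypothalamus. Of the 6 pairs of regions, 4 did not overlap at 80 d, 3 at 100 d, 0 at 120 d, 1 at 130 d, 1 at 145 d and 0 after birth. How often all genes separated regions in this way was not counted. These counts, and the lack of overlap of cortex at 80 d, are therefore not read as particular to BCL2. As stated, region and slide cannot be told apart in these differences.

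The 2 probes, which share 58 of their bases, tracked each other in cortex and brainstem and parted on many arrays of hippocampus and hypothalamus. Over arrays their levels correlated at r = 0.99 in cortex (24 arrays) and r = 0.84 in brainstem (24 arrays). In hippocampus r was 0.65 (21 arrays) and in hypothalamus 0.04 (24 arrays). The probes of an array share its RNA and labelling, and r in cortex also carries the wide range of levels over age.

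The probes lay over 0.5 apart on 0 cortex, 1 brainstem, 7 hippocampus and 11 hypothalamus arrays. In the hypothalamus their difference ran from -3.76 to 2.61 on the log2 scale. On the array with -3.76, replicate 1 at 145 d, probe A read 6.82 and probe B read 10.58. The low mean of 8.70 on that array is therefore the level of neither probe.

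**Figure D2:**
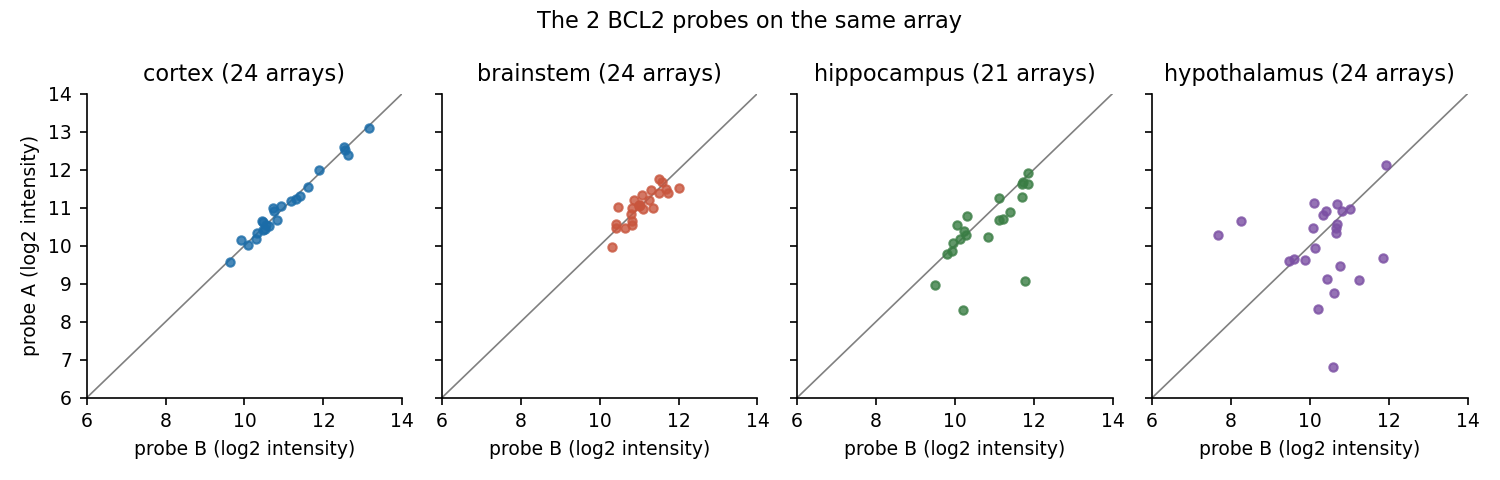
Level of probe A (vertical axis) against probe B (horizontal axis), both log2 intensity, with each point an array that has both probes and the line marking equal levels. Cortex points lie along the line, whereas in hypothalamus 11 of 24 arrays lie more than 0.5 from it, on either side.

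The spots lie far apart on the array, at row 3 for probe A and at row 161 for probe B. The surroundings of each were measured as the median deviation of the 169 or 200 gene spots within 8 rows and columns from the mean of the same spots over the arrays of the region. In cortex these surroundings stayed between -0.08 and 0.08. In hypothalamus they ran from -0.50 to 0.40 around probe A, and in hippocampus from -0.63 to 0.34.

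The difference between the probes went with the difference between their surroundings, at r = 0.84 in hypothalamus, 0.83 in brainstem and 0.77 in hippocampus. In cortex, where both differences were small, r was 0.37. On the 7 hypothalamus arrays with probe A over 1 below probe B, its surroundings were lower by 0.42 to 0.76 than those of probe B. On the 3 with probe A over 1 above, they were higher by 0.30 to 0.32. These correlations over arrays are descriptions, and what made the spots differ was not tested.

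**Figure D3:**
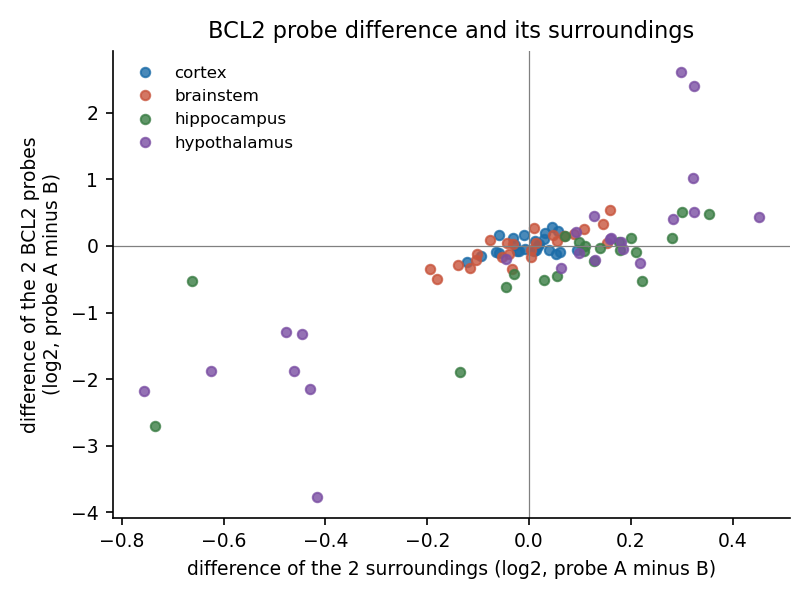
Difference of the 2 BCL2 probes (log2, probe A minus probe B, vertical axis) against the difference of the medians of the gene spots around them (log2, horizontal axis), with 1 point per array coloured by region. Cortex and brainstem arrays gather near 0 on both axes, and the hypothalamus arrays with the widest probe differences lie at the far left and at the right.

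With the surroundings taken off each spot, the spread between arrays of a group (residual SD) went from 0.81 to 0.70 for the hippocampus. The hypothalamus value was 0.69 before and 0.64 after, the brainstem value 0.31 and 0.25, and the cortex value 0.30 and 0.29. With the surroundings off, the probes lay over 0.5 apart on 0 cortex, 0 brainstem, 6 hippocampus and 10 hypothalamus arrays. The median absolute difference of the probes in hypothalamus was 0.44 before and 0.37 after. The change from 80 to 145 d then read -2.27 for cortex and -0.38 for brainstem, with -0.25 for hippocampus and -0.67 for hypothalamus. Without the arrays whose probes were over 0.5 apart or outlier marked it read -2.27 in cortex and -0.32 in brainstem, as with all arrays. In hippocampus it read -0.50 from 1 array at 80 d and 2 at 145 d, and in hypothalamus -0.29 from 2 and 3 arrays. Both of these alternatives were chosen after seeing the data.

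BCL2 acts with other proteins of the same pathway, and these were followed through a list of 77 survival and death genes. A named probe existed for 16 of them, of which 15 were measured in cortex and 16 in each other region. Over age (F test, limma), 7 of 15 passed at an adjusted p under 0.05 in cortex, where 46.5% of all genes did. In brainstem 9 of 16 passed against 41.2% of all genes, and in hypothalamus 4 of 16 against 15.7%. In hippocampus limma called 0 of 16 against 3.09% of all genes, with 1 at an unadjusted p under 0.05. These shares are read only against those of all genes.

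Between 80 and 145 d, 3 of the 15 genes fell and 2 rose in cortex, beside 23% and 19% of all genes. In brainstem 6 fell and 3 rose, beside 20.8% and 17.3%. In hippocampus limma called 0 genes lower and 0 higher (3 had an unadjusted p under 0.05), beside 2.4% and 2.07%, and in hypothalamus 2 fell and 1 rose, beside 8.25% and 5.57%. The median change of the list was 0.04 for cortex and 0.12 for brainstem, with -0.05 for hippocampus and 0.07 for hypothalamus. That of all genes was -0.02, 0.0072, 0.0015 and -0.02 in the same order.

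Of the closest relatives of BCL2, the anti-apoptotic BCL2L1 and MCL1 were on the array. In cortex, where BCL2 fell by 2.27, BCL2L1 read 7.34 ± 0.13 at 80 d and 7.34 ± 0.16 at 145 d (SD, n = 4 each). Its change of 0.0044 did not pass (adjusted p = 0.97). BCL2L1 was well above background on 4 of 4 arrays at both ages, but dim. The mean over the cortex arrays was 11.03 for BCL2 and 6.41 for the lymphocyte marker CD4. Whether a fall like that of BCL2 would show at so low a level was not tested, so BCL2L1 is not read as held constant. MCL1 in cortex went from 8.74 ± 0.08 to 8.56 ± 0.12 (SD, n = 4 each), a change of -0.18 that did not pass (adjusted p = 0.11). In the other regions MCL1 passed between 80 and 145 d in brainstem alone, where it fell by 0.37 ± 0.14 (SE, adjusted p = 0.043), and BCL2L1 in none, with 0.44 in brainstem (adjusted p = 0.057). The F test over all ages passed for BCL2L1 in brainstem (adjusted p = 0.032) and hypothalamus (adjusted p = 0.042). The brainstem F call was lost with the deposited table and the replicate block, and the hypothalamus F call with the processed signal, the deposited table, trend and robust, and the brightest probe. Between 80 and 145 d BCL2L1 did pass in brainstem with offset 16 and with the processed signal, and in hypothalamus with the slide block. In brainstem the MCL1 call was lost with eBayes set to trend and robust, and without 11 of the 24 brainstem arrays, each left out in turn.

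BAX, the pore-forming protein that BCL2 holds back, fell in cortex. Its arrays read 9.38, 9.39, 9.85 and 9.20 at 80 d and 8.54, 8.37, 8.67 and 8.34 at 145 d, without overlap. The change was -0.97 ± 0.15 (SE, adjusted p = 7.8e-06). In the other regions BAX did not pass, with changes of 0.46 in brainstem, -0.19 in hippocampus and -0.62 in hypothalamus. The brainstem result depended on 1 array of another age. Without newborn replicate 4, which read 7.75, the rise of BAX in brainstem passed. BCL2 and BAX were thus both lower at 145 d in cortex, with log2 differences of -2.27 and -0.97.

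BAD, a BH3-only protein that binds BCL2 and BCL2L1, fell by 0.32 ± 0.11 (SE, adjusted p = 0.028) in brainstem and by 0.60 ± 0.17 (SE, adjusted p = 0.017) in hypothalamus. In cortex its change of -0.23 did not pass between 80 and 145 d (adjusted p = 0.092), while the F test over all ages did (adjusted p = 0.0027). The brainstem call for BAD was lost with the processed signal (adjusted p = 0.33) and with its brightest probe (adjusted p = 0.13), and without 4 of the 24 arrays, each left out in turn. The hypothalamus call was lost without 2 of 24.

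Of the mitochondrial proteins released or placed near the pore, ENDOG, a nuclease of the mitochondrion, rose by 1.01 ± 0.17 (SE, adjusted p = 3.2e-05) in cortex and by 0.59 ± 0.13 (SE, adjusted p = 0.0052) in hypothalamus. Its changes of 0.80 in brainstem and 1.26 in hippocampus did not pass (adjusted p = 0.16 and 0.13). The brainstem rise did pass without newborn replicate 4, which read 8.19, and with the processed signal. The hippocampus rise passed with the replicate block. VDAC1, the channel of the outer membrane, fell by 0.83 ± 0.22 (SE, adjusted p = 0.0035) in brainstem and did not pass elsewhere.

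Of the death receptor arm, FAS and TNF passed in 0 regions between 80 and 145 d in limma. Both were dim, with group means at 80 d from 6.72 (TNF in cortex) to 7.27 (FAS in brainstem). How large a change would show at such levels was not tested. TNFRSF1A, the receptor of TNF, fell by 0.55 ± 0.14 (SE, adjusted p = 0.0033) in brainstem, from a mean of 7.42 at 80 d that was also low.

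Growth factor signals that feed the survival pathway changed in several directions. AKT1, the kinase that phosphorylates BAD, fell by 0.50 ± 0.19 (SE, adjusted p = 0.025) in cortex, by 1.65 ± 0.18 (SE, adjusted p = 3.1e-07) in brainstem and by 0.75 ± 0.22 (SE, adjusted p = 0.024) in hypothalamus. Its change of -0.91 in hippocampus did not pass (adjusted p = 0.21). With the processed signal the calls in cortex (adjusted p = 0.067) and hypothalamus (adjusted p = 0.064) were lost, and the cortex call also without replicate 1, 2 or 4 at 80 d or replicate 1, 2 or 3 at 145 d. The hypothalamus call was lost without replicate 1 at 80 d and without replicate 1 at 145 d.

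IGF2, a ligand of the IGF1 receptor, rose by 2.11 ± 0.49 (SE, adjusted p = 6.8e-04) in cortex and fell by 1.27 ± 0.52 (SE, adjusted p = 0.043) in brainstem, where the call was lost without 5 of the 24 arrays. That call was also lost with the processed signal (adjusted p = 0.059), with no filter on dim probes (adjusted p = 0.051) and with the brightest probe (adjusted p = 0.13). IGF1R, the receptor, fell by 0.43 ± 0.11 (SE, adjusted p = 0.0021) in cortex. In brainstem IGF1 rose by 0.59 ± 0.14 (SE, adjusted p = 0.0024), FGF2 by 1.11 ± 0.20 (SE, adjusted p = 9.0e-05) and the erythropoietin receptor EPOR by 0.57 ± 0.10 (SE, adjusted p = 3.6e-04). EPO itself was well above background on at most 3 of 4 arrays in any of the groups at 80 d, 145 d or after birth and was not measured in cortex.

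**Figure D4:**
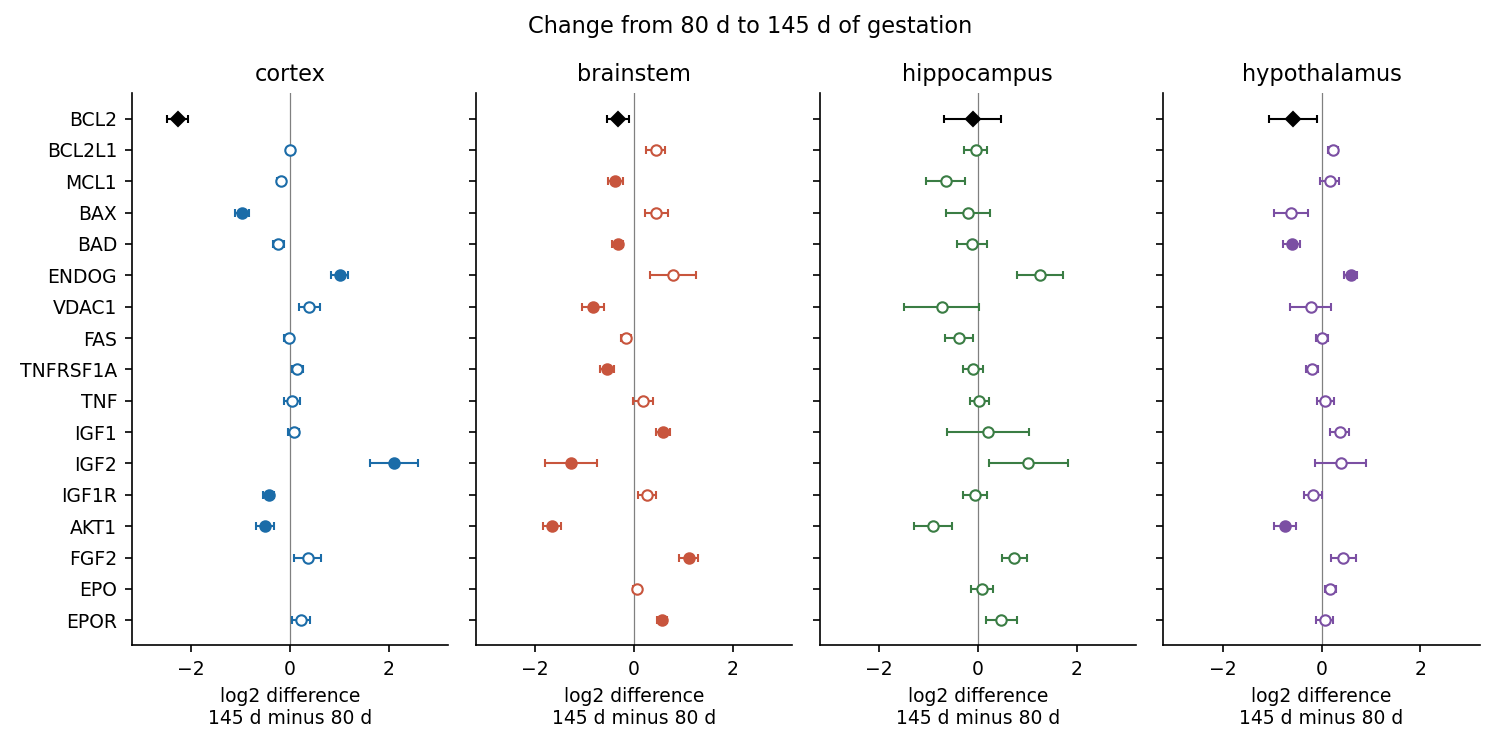
Difference of 145 d from 80 d (log2, horizontal axis, whiskers 1 SE, n = 4 against 4 arrays) for BCL2 (black diamonds, not tested) and the 16 survival genes with a named probe, in 1 panel per region. Filled circles passed at an adjusted p under 0.05 and open circles did not. BCL2 in cortex lies farthest to the left at -2.27, and no circle is filled in the hippocampus panel.

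Whether the change from 80 to 145 d differed between the 4 regions was tested for the 15 survival genes measured in all of them. IGF2 was the 1 gene that passed (adjusted p = 0.016), beside 11.6% of all genes. For BAX the same test gave an adjusted p of 0.077. With normalization within each region 4 genes passed, AKT1, BAX, IGF2 and TNFRSF1A, beside 1775 of 12315 of all genes. With the processed signal 2 passed, IGF2 and TNFRSF1A, beside 1752 of 13302 of all genes.

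The calls at birth lay in brainstem and hypothalamus alone. Unadjusted limma p-values fell below 0.05 for 8 of 16 survival genes in the former and for 3 of 16 in the latter. Between 145 d and 1 d after birth, 0 of 15 passed in cortex (2 at an unadjusted p under 0.05), beside 0.252% of all genes, and 0 of 16 in hippocampus (0 at an unadjusted p under 0.05), beside 0.00772%. In brainstem IGF1 fell by 0.67 ± 0.14 (SE, adjusted p = 0.011) and FGF2 by 0.66 ± 0.20 (SE, adjusted p = 0.046), beside 4.99% of all genes. In hypothalamus AKT1 rose by 0.87 ± 0.22 (SE, adjusted p = 0.041) and TNFRSF1A by 0.49 ± 0.12 (SE, adjusted p = 0.045), beside 2.44%. With the processed signal AKT1 did not pass there (adjusted p = 0.067) and EPO did, and with the deposited table TNFRSF1A did not (adjusted p = 0.063).

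These birth calls, other than IGF1 in brainstem, depended on single arrays. In brainstem, IGF1 passed without each array in turn, whereas FGF2 lost its call without 17 of the 24. Without replicate 1 of the newborn brainstem 5 genes passed, AKT1, ENDOG, FGF2, IGF1 and MCL1. In hypothalamus 0 genes passed without replicate 2 or 4 of the newborns, replicate 4 at 80 d, replicate 1 at 100 d or replicate 1 at 145 d. In cortex MCL1 and TNF passed without replicate 1 of the newborns.

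Markers of the cells that appear and disappear over these ages also differed between 80 and 145 d in cortex. Of 8 markers of newborn or migrating neurons only NEUROD1 had a named probe, and its intensity in cortex was 2900 to 4446 at 80 d and 1632 to 2070 at 145 d. The summed intensity of 6 of 10 progenitor and cell cycle markers was 2161 to 3844 at 80 d and 1380 to 1700 at 145 d. That of 2 of 8 oligodendrocyte markers, TF and CRYAB, was 715 to 976 at 80 d and 38070 to 49720 at 145 d.

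Some of the lists also differed between these ages elsewhere. In brainstem, NEUROD1 went from 2149 to 12490 at 80 d to 158 to 398 at 145 d, and TF with CRYAB from 13630 to 19930 up to 175100 to 241600. In hippocampus, NEUROD1 went from 7858 to 9083 down to 1659 to 1997. The astrocyte markers GFAP, AQP4 and GJA1, 3 of 7 on the list, had a summed intensity in cortex of 6976 to 17940 at 80 d and 26380 to 55510 at 145 d. In brainstem this astrocyte sum was 33330 to 56930 and 65870 to 103400 at these ages. It overlapped between them in hippocampus (9161 to 37930 and 24140 to 98100) and in hypothalamus (848 to 63440 and 48420 to 93720). The part of these markers in the BCL2 levels was not tested.

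Genes whose profile was most like that of BCL2 were sought among 852 other named genes measured in all regions, by Pearson correlation over the 24 group means after each region's mean was taken off. The 24 points share arrays within a group, and the cortex weighs most because BCL2 varied most there. The highest was IGFR1 at r = 0.82, followed by PGD at 0.79, IL1A at 0.78, PTGER3 at 0.77 and ACACA at 0.76. The median over all compared genes was -0.06.

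The files describe the IGFR1 probe as the insulin-like growth factor type 1 receptor, the gene that another probe carries as IGF1R, and the names were not merged. IGFR1 went from 8.64 at 80 d to 7.57 at 145 d in cortex, a difference of -1.07, while IGF1R changed by -0.43 and had r = 0.47 with BCL2. Of the survival genes, BAX was nearest to BCL2 at r = 0.53, at place 59 of 852.

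The profile most opposed to that of BCL2 was SLC25A4, the ADP/ATP carrier of the inner mitochondrial membrane, at r = -0.86. It went from 14.37 at 80 d to 15.77 at 145 d in cortex, and r was negative in each region, from -0.94 in cortex to -0.67 in hippocampus. BMP7, a growth factor of the BMP family, followed at r = -0.86, then V15 at -0.81 and ATP6V1B2, a subunit of the vacuolar proton pump, at -0.80.

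**Figure D5:**
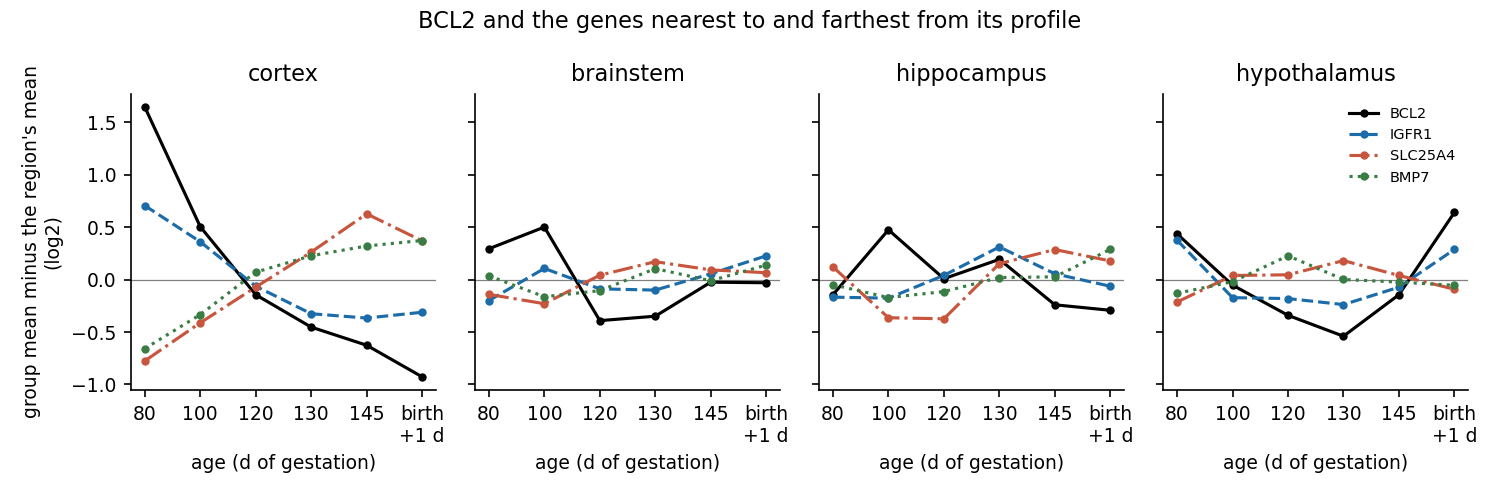
Group means of BCL2, IGFR1, SLC25A4 and BMP7 minus each gene's mean over the region (log2, vertical axis) against age, in 1 panel per region. In cortex BCL2 goes from 1.65 at 80 d to -0.93 after birth with IGFR1 on the same side of 0 at every age and BMP7 on the other, as was SLC25A4 except at 120 d, while in brainstem and hippocampus IGFR1 does not follow BCL2 (r = 0.20 and 0.02 over 6 ages).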

How the data were processed

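The authors hybridized Cy3-labelled RNA to 1-colour ovine arrays, and the deposited files hold each spot's mean and background intensity from Agilent Feature Extraction (10.1.1.1 in the files). The submitters' notes name limma, with no version given. The authors also deposited a table of normalized log2 values, which held 11138 of the 15008 probes and served as an alternative. Each of its 95 columns correlated best with its own array, and its column medians were 9.04 to 9.10.

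Intensities were background corrected by normexp (offset 50) in limma 3.58.1 (R 4.3.3) and quantile normalized over all arrays. Outlier-marked spots were left out on their array. Per region, probes had to reach 1.1 times the level that 95 percent of the 77 negative control spots stay under, on 4 or more of its arrays, and the probes of a gene were averaged. Of the probes, 1593 had a symbol, from the files or RefSeq's table for ARS-UI_Ramb_v3.0.

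The ages of a region shared 1 model (lmFit, eBayes). Adjusted p-values are Benjamini-Hochberg over all genes of a region. BCL2 was left out of all counts. The study's BETR test was not run here. The number of arrays limits the precision. The fits were tested on simulated data with known changes. Alternatives were another offset, the scanner's processed signal (each array set to its 75th percentile), the deposited table, normalization within regions, replicate or slide as a block, no filter, eBayes with trend and robust, the brightest probe, and leaving out each array.

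BCL2, the survival and marker lists and the tests were chosen with earlier results of these data known. The genes named are those of the survival list with a named probe, and the 5 highest and 5 lowest in correlation with BCL2. Some genes under these rules are not reported here, and the counts of the survival list leave them out. Figures were drawn with matplotlib 3.10.9.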

Additional observations from a re-analysis of the deposited data

Results flagged for a closer look

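In 2 of the 23 BCL2 groups with 4 arrays, 1 array stood apart from the others by Dixon's ratio, the gap to the nearest array over the range of the group, above its 95% critical value. In cortex at 80 d the ratio was 0.915, from 1 array at 13.13 above 3 between 12.50 and 12.55. In brainstem at 100 d it was 0.844, from 1 array at 11.39 below 3 between 11.59 and 11.63. Among 39 groups of survival genes, 2 stood out. For IGF1 in brainstem at 80 d the ratio was 0.913, with 1 array at 7.21 and 3 between 7.38 and 7.40. For AKT1 in hypothalamus at 145 d it was 0.915, with 1 array at 8.01 and 3 between 8.93 and 9.02. Chance gives such a ratio in about 1 of 20 groups.

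The change of IGF2 from 80 to 145 d differed between regions (adjusted p = 0.01559, limma). Its arrays in cortex read 7.89, 7.25, 7.76 and 7.89 at 80 d and 10.02, 10.98, 8.92 and 9.28 at 145 d. In brainstem they read 11.80, 11.73, 11.01 and 10.71 at 80 d and 9.92, 10.66, 8.92 and 10.66 at 145 d. In neither region did the ages overlap. The changes in hippocampus (1.02) and hypothalamus (0.39) did not pass on their own.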

How the results depend on the processing

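In cortex the BCL2 change from 80 to 145 d stayed between -2.36 and -2.12 under all alternatives run, arrays left out included. With 1 array left out it ran from -0.39 to -0.25 in brainstem, -0.52 to 0.31 in hippocampus and -0.85 to -0.13 in hypothalamus. The change at birth then ran from -0.51 to -0.13 for cortex, -0.25 to 0.15 for brainstem, -0.46 to 0.36 for hippocampus and 0.34 to 1.14 for hypothalamus. Same-numbered arrays of a region deviated together at a median r of 0.09, over 0.1 in 116 of 235 pairs, against -0.04 and 208 of 705 for other numbers. Same-numbered arrays of other regions at the same age had a median r of 0.06, over 0.1 in 56 of 141 pairs. For other numbers these were -0.05 and 91 of 423. The labels do not say what the numbers mean, so they were not taken to pair the samples. Whether same-numbered arrays share an animal was not tested. With the replicate block the cortex change was -2.27, and the hippocampus count of survival genes changed by 145 d was 1 instead of 0 (ENDOG). Under that block 1 gene differed between regions, as without it, beside 1560 of 12285 of all genes. At birth 1 gene passed in brainstem instead of 2 under the replicate block, offset 16, the processed signal, normalization within regions, no filter, and eBayes with trend and robust. In hypothalamus it was 1 instead of 2 with the deposited table. Shares of all genes at birth under these settings were not counted. Over age, 2 instead of 4 passed in hypothalamus with the processed signal and with trend and robust, beside 15% and 14.3% of all genes. The count that differed between regions was 4 with normalization within regions and 2 with the processed signal, beside 1775 of 12315 and 1752 of 13302 of all genes. The cause was not tested. With 1 array left out, the counts of survival genes over age were 6 to 9 for cortex, 7 to 11 for brainstem and 2 to 4 for hypothalamus (2 without 80 d replicate 4, 120 d replicate 1 or 4, or 145 d replicate 4). Between 80 and 145 d they were 4 to 7 for cortex, 6 to 12 for brainstem (12 without newborn replicate 4), 0 to 0 for hippocampus and 2 to 3 for hypothalamus. At birth they were 0 to 2 for cortex, 1 to 5 for brainstem and 0 to 2 for hypothalamus. Between regions they were 0 to 2, with 0 without brainstem 145 d replicate 3 and 2 without hypothalamus 145 d replicate 1. The processed signal moved the median change of all genes to 0.15 in brainstem and 0.17 in hippocampus. Of the 21 single-gene calls under 10 settings, 194 values kept their call, 16 lost it and 0 reversed.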
